A study of Homo sapiens with 12 samples.

Results

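The HOX cluster genes are the 39 protein-coding genes of the deposited table whose symbol is HOXA, HOXB, HOXC or HOXD followed by a number, out of 58395 genes in all. They lie in 4 clusters, with 11 genes in HOXA on chromosome 7, 10 in HOXB on chromosome 17, 9 in HOXC on chromosome 12 and 9 in HOXD on chromosome 2. On GRCh38, GENCODE 29 places HOXB at 48528526 to 48729178, HOXC at 53938765 to 54056030 and HOXD at 176092891 to 176190907. Their RNA was measured by sequencing in 12 libraries of 3 human leukemia cell lines, 4 libraries per line. Edit-3 (K/VP.5/edit-3) is 1 clone of K/VP.5 cells that were transfected with Cas9, a guide RNA and a repair template to alter a TOP2A splice site, the 5' one where exon 19 meets intron 19, so the edit and other features of that clone cannot be told apart. K/VP.5, a clonal subline derived from K562, has the unedited splice site and is resistant to etoposide, which holds topoisomerase II on the DNA it has cut. K562 is the parental line, established from chronic myeloid leukemia in blast crisis and positive for the BCR-ABL fusion. Etoposide at 0.5 µM was given every other week, in a culture sentence of the labels that covers all 3 lines. Whether the 4 libraries of each line stem from separate cultures is not stated, and p-values here reflect the spread between libraries alone, which may be technical.

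HOX genes encode transcription factors that bind DNA through a homeodomain and give cells their position along the body axis. Within each cluster the genes stand in a row, and genes at the same place in different clusters, called paralogs, carry the same number and have similar sequences. In blood, early progenitors express many HOX genes of the A, B and C clusters and lose them as they mature, and leukemias often keep part of that expression. HOX proteins bind DNA together with TALE cofactors (PBX, MEIS and PKNOX proteins), MLL complexes keep HOX genes active and Polycomb complexes keep them silent.

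Libraries held 25311993 to 37065946 reads, and within each line their log CPM values had pairwise correlations of 0.979 to 0.994. Of 10 marker genes of K562 cells, among them the globin genes HBG1, HBG2 and HBZ and the erythroid factors GATA1 and KLF1, 9 reached 1 CPM (the read count scaled to the size of the library, after TMM scaling) in every library of each line. TOP2A, the edited gene, averaged 416 ± 25.1 CPM in edit-3, 359 ± 14.5 CPM in K/VP.5 and 519 ± 25.8 CPM in K562 (SD, n = 4 each), a gene total that does not show which splice site was used. The summed level of 13 markers of cells that the cultures should lack was 2060 to 3330 CPM in edit-3, 376 to 457 CPM in K/VP.5 and 217 to 250 CPM in K562, most of it from COL1A2 and EPCAM. COL1A2, a collagen gene, averaged 2490 CPM in edit-3, 230 CPM in K/VP.5 and 6.82 CPM in K562, EPCAM averaged 331, 154 and 169 CPM in the same order, and MS4A1 and KRT5 had 0 reads in every library. On a longer list of 14 fibroblast markers, chosen after COL1A2 was seen, the summed level was 1700 to 2980 CPM in edit-3, 227 to 313 CPM in K/VP.5 and 9.22 to 16.3 CPM in K562. Of the 14, 7 were tested. In K/VP.5 versus K562, 5 of these rose (COL1A1, COL1A2, COL6A1, COL6A2 and THY1, with a median log2 fold change of 3.18 over the 7). In edit-3 versus K/VP.5, COL1A2 rose while COL1A1 and COL6A1 fell (median -0.21). Over all genes tested, 18.3% were higher in K/VP.5 than in K562, and 12.9% were higher and 10.6% lower in edit-3 than in K/VP.5. At 1 CPM in all 4 libraries, 5 of the 14 were expressed in edit-3, 4 in K/VP.5 and 1 in K562. Others on the list had few reads: DCN had 2, 2 and 1 reads in edit-3, K/VP.5 and K562, LUM had 0, 1 and 0, PDGFRA had 1, 0 and 0, and FAP had 0, 0 and 1. The summed marker level moves in the same order of lines as the HOX levels of clusters A and D below, and its part in them was not tested.

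All 4 clusters held RNA reads, and they differed widely in how many of their genes were expressed, counted here as genes with at least 1 CPM in all 4 libraries of a line. By that count 18 of the 39 HOX genes were expressed in edit-3, 18 in K/VP.5 and 11 in K562. Of all 19912 protein-coding genes, the same count took in 56.1% in edit-3, 56.1% in K/VP.5 and 54.4% in K562. HOXB was the cluster with the most expressed genes in each line, with 8 of 10 in edit-3, 8 in K/VP.5 and 7 in K562. HOXC had 6 of 9 expressed genes in edit-3, 6 in K/VP.5 and 3 in K562. HOXA had only 2 of 11 in edit-3, 2 in K/VP.5 and 1, HOXA3, in K562. HOXD had 2 of 9 in edit-3 (HOXD8 and HOXD9), the same 2 in K/VP.5, and none in K562. No reads at all were found for 5 HOX genes in edit-3, 3 in K/VP.5 and 11 in K562, and HOXD11 had 0 reads in all 12 libraries, which allows up to 0.00826 CPM on average. At 1 RPKM (CPM per kilobase of exon) in place of 1 CPM, the expressed genes numbered 12 in edit-3, 12 in K/VP.5 and 7 in K562.

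**Figure D1:**
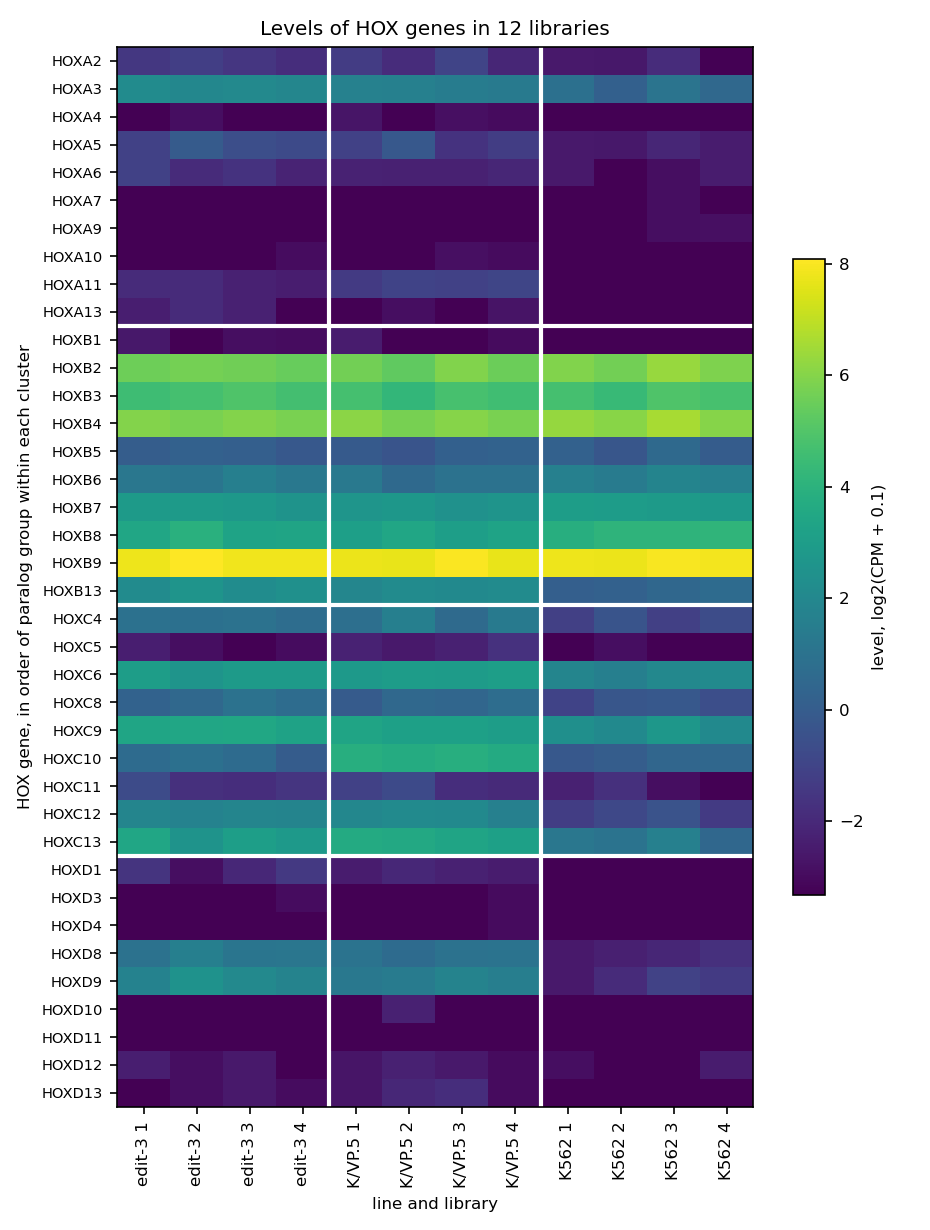
Levels of HOX genes, 1 row per gene ordered by paralog group within clusters A, B, C and D, in the 4 libraries each of edit-3, K/VP.5 and K562. Colour gives the level as the log2 of CPM plus a small constant, so dark rows are genes with few or no reads. HOXB2, HOXB3, HOXB4 and HOXB9 are bright in all 12 libraries, HOXC10 is bright in K/VP.5 alone, and HOXD8 and HOXD9 are dark in K562 alone.

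The HOXB cluster held most HOX reads in each line, and the libraries of the 3 lines overlapped in its summed level, while the other 3 clusters had more reads in edit-3 and K/VP.5 than in K562. The summed level of HOXB was 397 ± 27.2 CPM in edit-3, 379 ± 39.6 CPM in K/VP.5 and 423 ± 46.1 CPM in K562 (SD, n = 4 each). That made up 88.6% of all HOX CPM in edit-3, 86.3% in K/VP.5 and 96.4% in K562. HOXC summed to 33.7 ± 3.2 CPM in edit-3, 48.4 ± 2.73 CPM in K/VP.5 and 13.4 ± 2.08 CPM in K562. These ranges did not overlap between any pair of lines, at 30.5 to 37.3 CPM in edit-3, 45 to 50.7 CPM in K/VP.5 and 12.1 to 16.5 CPM in K562. Between edit-3 and K/VP.5, HOXC10 was the only tested HOXC gene that changed, with means of 1.40 and 13.3 CPM. The gap in the sum between these lines therefore does not show a shift of the whole cluster. HOXA summed to 10.4 ± 1.32 CPM in edit-3, 6.59 ± 0.51 CPM in K/VP.5 and 1.81 ± 0.552 CPM in K562. HOXD summed to 6.51 ± 1.34 CPM in edit-3, 4.87 ± 0.521 CPM in K/VP.5 and 0.379 ± 0.188 CPM in K562. HOXA libraries did not overlap between any pair of lines, and HOXD libraries of edit-3 (5.43 to 8.44 CPM) and K/VP.5 (4.37 to 5.57 CPM) did, both lying above the highest K562 library at 0.563 CPM. In bulk RNA, fewer cells that express a gene and less RNA per cell cannot be told apart.

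**Figure D2:**
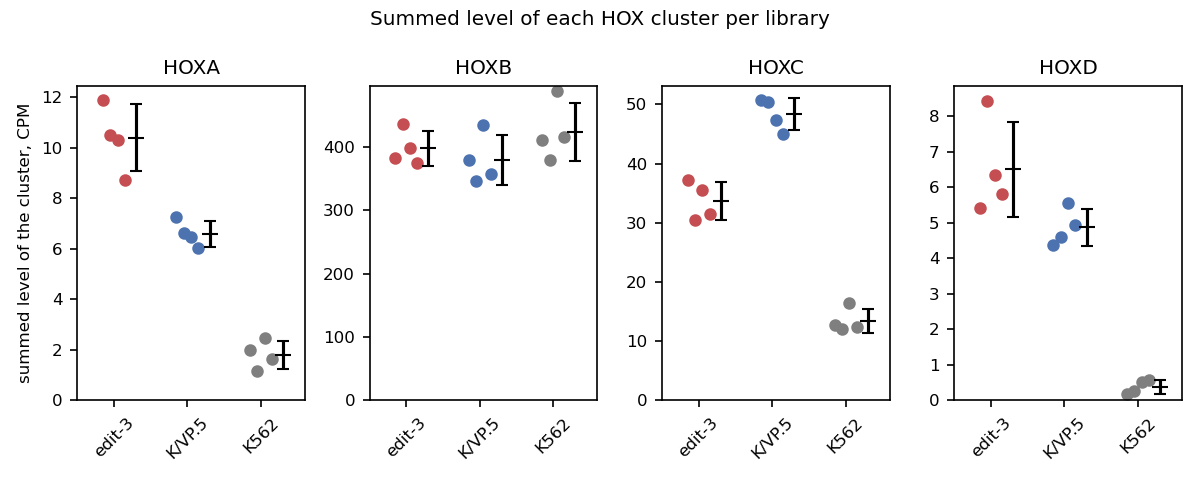
Summed level in CPM of the members of each HOX cluster, with 1 point per library and the mean ± SD beside it, for edit-3, K/VP.5 and K562 from left to right (each panel has its own axis, starting at 0). The HOXB points of the 3 lines overlap near 400 CPM, and the K562 points lie below the others in HOXA, HOXC and HOXD.

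The comparison of K/VP.5 with K562 asks in which genes the resistant subline differs from its parent. K/VP.5 is a clonal subline, so its resistance and other features of that clone cannot be told apart. Of the 39 HOX genes, 21 had enough reads to be tested (3 in HOXA, 9 in HOXB, 7 in HOXC and 2 in HOXD), and 17 of them changed in K/VP.5 at an adjusted p under 0.05 (edgeR quasi-likelihood test, Benjamini-Hochberg over 18286 genes). Of these, 13 rose and 4 fell, which is 81.0% of the tested members. Over all genes tested 36.6% changed, with 18.3% higher and 18.3% lower. All 3 tested HOXA genes rose, as did all 7 HOXC and both HOXD genes, with median log2 fold changes of 2.18, 2.15 and 3.71. In HOXB, HOXB13 rose, HOXB4, HOXB6, HOXB7 and HOXB8 fell, 4 genes did not pass, and the median was -0.34. The median over all 21 tested members was 1.03, against 0.0026 over all genes tested. A gene that is nearly silent in K562 enters the test only if it has reads in another line. Among such genes, HOXA5, HOXD8 and HOXD9 had 10, 14 and 25 reads over the 4 K562 libraries. A fall in K/VP.5 could hardly have been called for them. The HOXD median rests on such genes alone, and the HOXA median is the value of HOXA5. HOXC4 and HOXC12 were low in K562 too, with 54 and 49 reads over its 4 libraries. The HOXC median is the value of HOXC4, so the HOXC rises are only partly free of this limit. The 18 untested members, none above 0.517 CPM in any library, must therefore be read beside these counts.

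**Figure D3:**
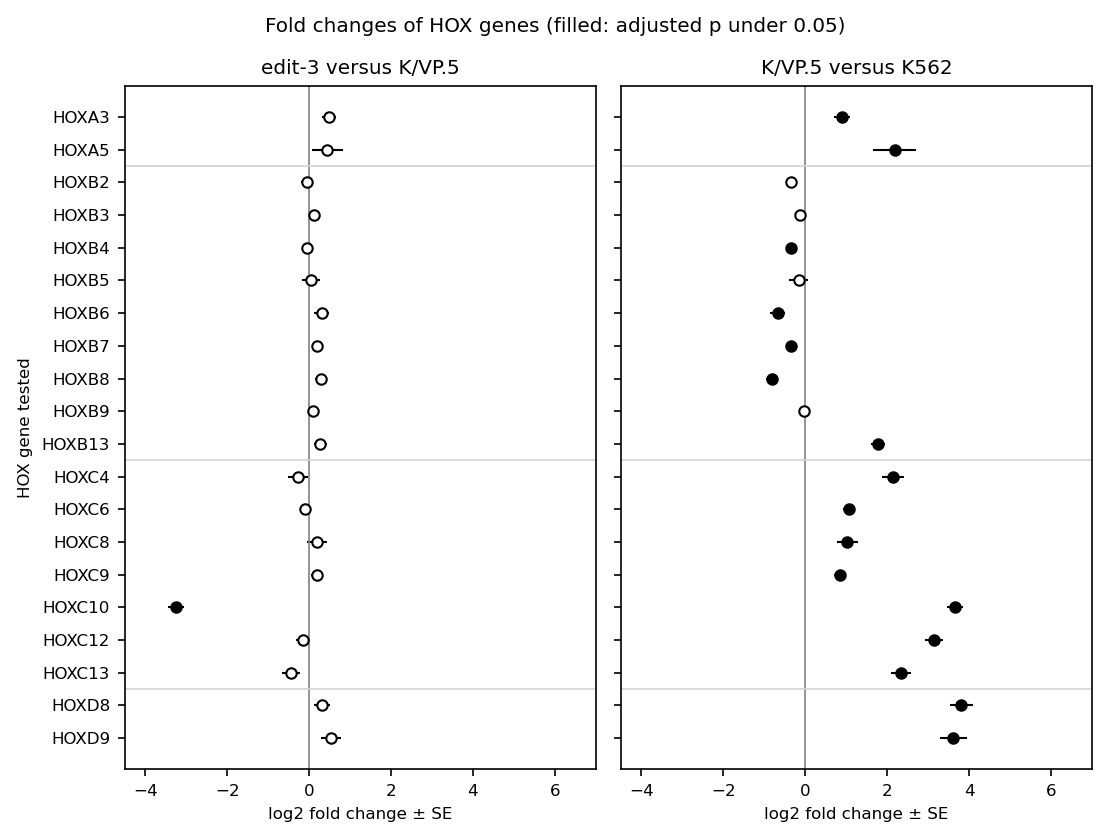
Log2 fold change ± SE of tested HOX genes in edit-3 versus K/VP.5 (left) and K/VP.5 versus K562 (right), with filled points where the adjusted p is under 0.05 and grey lines between clusters. On the left HOXC10 at -3.25 is the filled point, and on the right the rises shown reach 3.81 (HOXD8) and the 4 falls reach -0.82 (HOXB8).

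HOXB9, a posterior HOXB gene, was the most abundant HOX gene in each line, and it did not pass the test in any comparison. It had 224, 271, 231 and 226 CPM in the edit-3 libraries, 212, 209, 260 and 209 CPM in those of K/VP.5, and 219, 212, 249 and 235 CPM in those of K562. The 3 lines overlapped, and the log2 fold change was 0.10 (SE 0.09, adjusted p = 0.49) in edit-3 versus K/VP.5 and -0.04 (SE 0.09, adjusted p = 0.78) in K/VP.5 versus K562. HOXB9 alone made up 53.1% of all HOX CPM in edit-3, 50.7% in K/VP.5 and 52.3% in K562. Per exon length it stood at 92.2 RPKM in edit-3, 86.3 in K/VP.5 and 88.7 in K562, ahead of HOXB2 at 20.4, 21.1 and 26.7 RPKM and HOXB4 at 15.6, 16.1 and 20.4 RPKM in the same lines. No other HOX gene exceeded 8.0 RPKM on average in a line. Its mean level lay above that of 95.8% of protein-coding genes.

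The homeoboxes of HOXB9, HOXC9 and HOXD9 are shown because HOXB9 far exceeds the other two in level, so it matters how well their reads can be told from its own. They are the stretch of 180 bases that encodes the homeodomain, given 5' to 3' on the coding strand from GENCODE 29 transcripts, with capitals where a base differs from HOXB9.
HOXB9: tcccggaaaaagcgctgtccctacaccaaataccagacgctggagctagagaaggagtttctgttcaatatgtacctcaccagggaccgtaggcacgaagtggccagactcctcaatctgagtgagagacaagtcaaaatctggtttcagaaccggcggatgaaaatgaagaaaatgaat
HOXC9: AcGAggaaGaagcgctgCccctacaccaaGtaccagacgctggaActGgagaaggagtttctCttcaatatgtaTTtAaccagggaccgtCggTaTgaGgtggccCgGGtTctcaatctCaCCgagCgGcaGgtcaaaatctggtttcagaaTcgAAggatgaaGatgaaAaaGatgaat
HOXD9: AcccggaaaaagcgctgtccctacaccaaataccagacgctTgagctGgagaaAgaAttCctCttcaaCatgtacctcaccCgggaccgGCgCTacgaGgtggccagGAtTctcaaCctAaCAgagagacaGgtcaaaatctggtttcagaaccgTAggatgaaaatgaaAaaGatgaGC
HOXC9 differs from HOXB9 at 32 of the 180 bases and HOXD9 at 28. The longest run of identical bases shared with HOXB9 anywhere in the coding sequence was 40 in HOXD9 and 20 in HOXC9. Read length and the treatment of reads with several matches were not given in the sources used here. HOXD9 had 485 reads in edit-3, 351 in K/VP.5 and 25 in K562, where HOXB9 had 28953, 28406 and 25806. HOXD9 reads thus differed between lines with similar HOXB9 counts, and how many of them came from HOXB9 was not tested.

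Of the other HOXB genes, HOXB4, HOXB6, HOXB7 and HOXB8 were lower in K/VP.5 than in K562, and HOXB2, HOXB3 and HOXB5 did not pass. HOXB8, a factor that blocks myeloid maturation when it is overexpressed in mouse progenitors, had 10.7, 15.1, 9.73 and 10.1 CPM in libraries of edit-3, 8.62, 10.7, 8.26 and 9.65 CPM in the K/VP.5 libraries, and 13.9, 17.1, 17.0 and 17.7 CPM in the libraries of K562. Every K/VP.5 library lay below every K562 library, and HOXB8 fell by 0.82 on the log2 scale (standard error 0.15, adjusted p = 0.00042). HOXB6, which lies between HOXB5 and HOXB7, had 2.2, 2.04, 2.92 and 2.26 CPM in the edit-3 libraries, 2.38, 1.38, 1.89 and 1.89 CPM in those of K/VP.5, and 3.01, 2.56, 3.45 and 3.06 CPM in those of K562. Its K/VP.5 and K562 libraries did not overlap, and it fell by 0.67 (SE 0.18, adjusted p = 0.0097). HOXB7 had 7.37, 7.28, 6.67 and 5.79 CPM in libraries of edit-3, 5.98, 6.48, 5.38 and 5.84 CPM in the K/VP.5 libraries, and 7.99, 7.8, 7.41 and 6.68 CPM in the libraries of K562. It fell by 0.34 in K/VP.5 (SE 0.12, adjusted p = 0.040), without overlap, but the call was lost when any 1 of K562 replicates 1, 2 and 3 or K/VP.5 replicates 1, 3 and 4 was left out, with adjusted p-values up to 0.11, and with no filter on low counts (adjusted p = 0.15).

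HOXB4, which expands blood stem cells when it is overexpressed, had 61.6, 55.2, 62.5 and 54.6 CPM in the edit-3 libraries, 68.5, 53.6, 65.3 and 55.0 CPM in those of K/VP.5, and 78.6, 67.3, 97.2 and 64.1 CPM in those of K562. The K/VP.5 and K562 libraries overlapped, and HOXB4 fell by 0.34 (SE 0.12, adjusted p = 0.042). That call was lost when K562 replicate 1 or 3, or else K/VP.5 replicate 2, 3 or 4, was left out, with a log2 fold change of -0.21 and an adjusted p of 0.16 without K562 replicate 3, and it was also lost when only the 2 lines were fitted (adjusted p = 0.074). HOXB2, a regulator of hindbrain segments, had 47.4, 51.4, 48.4 and 43.1 CPM in libraries of edit-3, 50.5, 39.3, 61.4 and 45.9 CPM in the K/VP.5 libraries, and 60.4, 50, 80.2 and 59.0 CPM in the libraries of K562. Its libraries overlapped, with a log2 fold change of -0.34 (standard error 0.14, adjusted p = 0.083) in K/VP.5 versus K562, where the replicate block (the replicate number as a term in the fit) gave an adjusted p of 0.019. Without K562 replicate 2 the adjusted p was 0.034 and without K/VP.5 replicate 3 it was 0.023. HOXB3 had 23.0, 26.2, 30.8 and 25.7 CPM in the edit-3 libraries, 26.2, 18.8, 27.2 and 24.2 CPM in those of K/VP.5, and 26.5, 20.6, 31.0 and 27.1 CPM in those of K562, and did not pass (adjusted p = 0.52). HOXB5 was close to the expression threshold, at 0.95 ± 0.123 CPM in edit-3, 0.909 ± 0.187 CPM in K/VP.5 and 1.02 ± 0.291 CPM in K562 (SD, n = 4 each), with an adjusted p of 0.65. Reads of HOXB3, HOXB4 and HOXB6 are uncertain where their exons lie over each other. HOXB4 shares 17.1% of its exon bases on the same strand, with HOXB3 among others, and HOXB6 shares 16.6% with HOXB3 on the same strand and 16.3% with HOXB-AS3 on the other. HOXB3 shares 7.94% with HOXB4 and HOXB6.

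HOXB13, the most posterior HOXB gene, known for its role in the prostate, moved the other way. It had 4.46, 5.87, 4.51 and 5.22 CPM in libraries of edit-3, 3.63, 4.39, 4.11 and 4.4 CPM in the K/VP.5 libraries, and 0.99, 1.08, 1.3 and 1.49 CPM in the libraries of K562. Every K/VP.5 library lay above every K562 library, and HOXB13 rose 3.41-fold (log2 fold change 1.77, SE 0.17, adjusted p = 8.3e-07). It is the one tested HOXB gene that rose. HOXB13 lies apart from the others, at 48724763 to 48729178 on the minus strand of chromosome 17, while HOXB1 to HOXB9 fill 48528526 to 48626356 (HOXB7 has a model that reaches 48633572).

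The 7 tested HOXC genes all rose in K/VP.5, and the 2 untested ones, HOXC5 and HOXC11, had few reads. HOXC10, a gene of the lumbar spinal cord and hindlimb, had 1.49, 1.74, 1.48 and 0.904 CPM in the edit-3 libraries, 14.3, 12.8, 13.9 and 12.4 CPM in those of K/VP.5, and 0.778, 0.917, 1.26 and 1.29 CPM in those of K562. The K/VP.5 libraries stood far above those of both other lines, and HOXC10 rose 12.6-fold against K562 (log2 fold change 3.65, SE 0.20, adjusted p = 2.9e-09). HOXC12, a posterior gene, had 3.56, 3.2, 3.6 and 3.47 CPM in libraries of edit-3, 3.83, 4.25, 4.22 and 3.04 CPM in the K/VP.5 libraries, and 0.318, 0.459, 0.649 and 0.282 CPM in the libraries of K562. The K562 libraries lay below all others, and HOXC12 rose 8.79-fold in K/VP.5 (log2 fold change 3.14, SE 0.22, adjusted p = 4.4e-08). HOXC13, which hair and nail formation needs, had 10.6, 5.71, 8.26 and 7.05 CPM in the edit-3 libraries, 12.4, 11.8, 9.93 and 8.93 CPM in those of K/VP.5, and 2.23, 1.93, 3.04 and 1.29 CPM in those of K562. It rose 5.04-fold in K/VP.5 without overlap (log2 fold change 2.33, SE 0.24, adjusted p = 2.3e-06).

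The other 4 tested HOXC genes, HOXC4, HOXC6, HOXC8 and HOXC9, rose in K/VP.5 with log2 fold changes of 0.84 to 2.15. HOXC9 had 10.2, 10.6, 11.0 and 9.41 CPM in libraries of edit-3, 10.1, 8.89, 8.88 and 8.0 CPM in the K/VP.5 libraries, and 5.09, 4.16, 6.52 and 4.18 CPM in the libraries of K562. It rose 1.79-fold in K/VP.5 (log2 fold change 0.84, SE 0.15, adjusted p = 0.00032), and no K562 library reached the lowest K/VP.5 library. HOXC6 had 7.95, 5.97, 7.28 and 7.3 CPM in the edit-3 libraries, 7.06, 7.83, 7.49 and 8.18 CPM in those of K/VP.5, and 3.57, 2.95, 3.89 and 4.23 CPM in those of K562. It rose 2.09-fold in K/VP.5 (log2 fold change 1.06, SE 0.14, adjusted p = 2.2e-05), again without overlap. HOXC8, a gene of the trunk skeleton, had 1.1, 1.33, 1.84 and 1.54 CPM in libraries of edit-3, 0.879, 1.35, 1.24 and 1.6 CPM in the K/VP.5 libraries, and 0.389, 0.721, 0.785 and 0.563 CPM in the libraries of K562. It rose 2.04-fold in K/VP.5 (log2 fold change 1.03, SE 0.26, adjusted p = 0.0063). HOXC4, a gene also used by lymphocytes, had 1.81, 1.77, 1.87 and 1.6 CPM in the edit-3 libraries, 1.7, 2.94, 1.42 and 2.45 CPM in those of K/VP.5, and 0.354, 0.688, 0.341 and 0.523 CPM in those of K562. It rose 4.43-fold in K/VP.5 (log2 fold change 2.15, SE 0.27, adjusted p = 1.9e-05), and for HOXC8 and HOXC4 alike every K562 library lay below every K/VP.5 library. HOXC4 shares 17.8% of its exon bases with HOXC5 and HOXC6 on the same strand, so their reads cannot be fully separated.

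**Figure D4:**
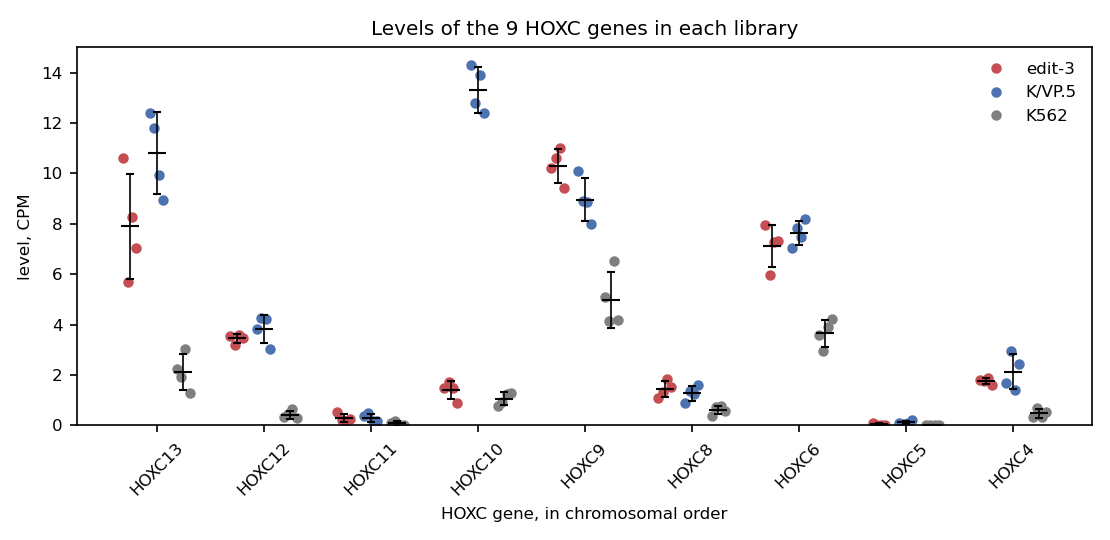
Levels in CPM of the 9 HOXC genes in chromosomal order, with 1 point per library and bars for the mean ± SD of 4 libraries in edit-3 (red), K/VP.5 (blue) and K562 (grey). HOXC10 stands near 13.3 CPM in K/VP.5 against 1.40 CPM in edit-3 and 1.06 CPM in K562, while in HOXC4, HOXC6, HOXC9, HOXC12 and HOXC13 the edit-3 points lie near those of K/VP.5, above those of K562.

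Most HOXA genes had few or no reads in these lines, and the 3 tested ones rose in K/VP.5. HOXA3, which the thymus and parathyroid need, had 4.49, 3.77, 3.97 and 3.62 CPM in the edit-3 libraries, 3.15, 3.05, 2.66 and 2.43 CPM in those of K/VP.5, and 1.77, 1.02, 1.98 and 1.33 CPM in those of K562. It rose 1.85-fold in K/VP.5 (log2 fold change 0.89, SE 0.19, adjusted p = 0.0022), without overlap. HOXA5, a lung and blood regulator, stayed under 1 CPM in every library, with 0.356, 0.868, 0.577 and 0.482 CPM in libraries of edit-3, 0.368, 0.779, 0.218 and 0.32 CPM in the K/VP.5 libraries, and 0.0707, 0.0655, 0.137 and 0.0805 CPM in the libraries of K562. It rose in K/VP.5 (log2 fold change 2.18, SE 0.52, adjusted p = 0.0037) from a base of 10 K562 reads. HOXA3 shares 15.4% of its exon bases with the antisense genes HOXA-AS2 and HOXA-AS3, and without a stated strand setting their reads cannot be told apart.

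HOXA9 and HOXA10, the HOXA genes best known from acute myeloid leukemia, were at or near 0. HOXA9 had 0 reads in edit-3, 0 in K/VP.5 and 2 in K562, HOXA10 had 1, 2 and 0 reads in the same order, and HOXA7 had 0, 0 and 1. HOXA11 had 16 reads in edit-3, 47 in K/VP.5 and 0 in K562, so that its K/VP.5 level was at least 13.8-fold higher than a floor of 3 reads over the 4 K562 libraries. HOXA2 had 31, 32 and 9 reads in edit-3, K/VP.5 and K562, HOXA6 had 26, 15 and 5, HOXA13 had 11, 3 and 0, and HOXA4 had 1, 4 and 0. None of these members was tested, and intervals and floors cover counting error only. Antisense genes lie over 62.5% of the exon bases of HOXA7, 39.3% of HOXA6 and 31.1% of HOXA11. HOXA4 shares 31% and HOXA9 15.9% with other genes on the same strand. Their reads are uncertain there, so these low counts alone do not show that the genes were silent. For HOXA11 the floor does not cover this.

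HOXD had only 42 reads over the 4 K562 libraries, and 2 adjacent genes of it had RNA in both derived lines. HOXD9, a limb and spinal cord gene, had 3.23, 5.44, 3.97 and 3.38 CPM in the edit-3 libraries, 2.24, 2.62, 3.35 and 2.82 CPM in those of K/VP.5, and 0.0707, 0.164, 0.376 and 0.282 CPM in those of K562. HOXD8, the next gene in the row, had 1.87, 2.9, 2.09 and 2.11 CPM in libraries of edit-3, 1.93, 1.49, 1.86 and 1.92 CPM in the K/VP.5 libraries, and 0.0707, 0.0983, 0.137 and 0.201 CPM in the libraries of K562. In both genes the K562 libraries lay far below all others. In K/VP.5, HOXD9 rose 12.2-fold (log2 fold change 3.61, SE 0.33, adjusted p = 6.1e-07) and HOXD8 rose 14.1-fold (log2 fold change 3.81, SE 0.28, adjusted p = 6.6e-08). The members beside them had few reads: HOXD10 had 0 reads in edit-3, 3 in K/VP.5 and 0 in K562, HOXD4 had 0, 1 and 0, and HOXD3 had 1, 1 and 0. HOXD4 shares 80.5% and HOXD3 62.2% of its exon bases with the locus AC009336.2 on the same strand. HOXD10 shares 16.8% with HOXD11. Their reads are uncertain there, so these low counts alone do not show that the genes were silent. HOXD1 had 21, 13 and 0 reads, HOXD12 had 6, 8 and 3, and HOXD13 had 4, 12 and 0. Of the remaining untested members, HOXB1 had 4, 4 and 0 reads, HOXC5 had 5, 17 and 1, and HOXC11 had 35, 38 and 10.

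The start regions of HOXD8 and HOXC4 are shown because both genes rose from a low level in K562 and the genes beside them differ in how many reads they had. RefSeq's promoter windows, from 250 bases before to 50 after the annotated start (GRCh38.p14, plus strand), were at hand for 20 of the 39 members, with 27 windows in all. Capitals mark CG, the dinucleotide that can be methylated, which reads the same on both strands. HOXD8 is at chr2:176129455-176129754 and HOXC4, whose RefSeq start is shared with HOXC5, at chr12:54016638-54016937.
HOXD8: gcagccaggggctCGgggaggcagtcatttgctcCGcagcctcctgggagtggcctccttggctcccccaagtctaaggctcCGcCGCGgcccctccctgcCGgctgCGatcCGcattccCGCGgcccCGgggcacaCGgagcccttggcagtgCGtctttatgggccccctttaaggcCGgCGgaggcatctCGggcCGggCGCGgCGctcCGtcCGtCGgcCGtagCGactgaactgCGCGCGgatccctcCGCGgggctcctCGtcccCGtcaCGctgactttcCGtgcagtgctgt
HOXC4: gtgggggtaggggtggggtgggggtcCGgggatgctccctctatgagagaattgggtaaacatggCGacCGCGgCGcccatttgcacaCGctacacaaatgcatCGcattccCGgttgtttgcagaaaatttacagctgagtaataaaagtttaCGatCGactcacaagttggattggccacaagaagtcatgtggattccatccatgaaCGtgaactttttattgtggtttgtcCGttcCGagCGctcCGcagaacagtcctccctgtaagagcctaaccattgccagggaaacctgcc
The HOXD8 window held 34 CG and the HOXC4 window 15, and 84.4% and 51.1% of the 35116 RefSeq windows of that length held fewer. Over the 27 windows of members the number of CG ran from 0 to 44 with a median of 22, against a median of 14 over all windows. Of the 27, 7 belong to HOXA3, and the window shared by HOXC4 and HOXC5 is counted for each. HOXB1 is the only HOXB gene among them, so the median does not describe all members. Methylation was not measured here.

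The comparison of edit-3 with K/VP.5, the line it was made from, describes the edited clone. Of the 21 tested members, 2 changed, 1 higher and 1 lower (HOXC10), which is 9.52% of them. Over all genes tested 23.6% changed, with 12.9% higher and 10.6% lower in edit-3. The median log2 fold change was 0.19 over the tested members and 0.0041 over all genes tested. HOXC10 fell to 1.40 ± 0.352 CPM in edit-3, against 13.3 ± 0.907 CPM in K/VP.5 (SD, n = 4 each), by 3.25 on the log2 scale (standard error 0.20, adjusted p = 1.6e-08). All 4 edit-3 libraries lay under 2 CPM and all 4 K/VP.5 libraries above 12 CPM. Its neighbours in the row did not pass: HOXC9 had a log2 fold change of 0.20 (adjusted p = 0.35) on one side, and on the other HOXC12 had -0.15 (adjusted p = 0.61), beyond HOXC11 with 35 reads in edit-3 and 38 in K/VP.5. HOXC10 shares 7.12% of its exon bases with the locus AC012531.2 on the same strand and 2.7% with HOXC-AS3 on the other, and HOXC-AS3 had 14 reads in edit-3 and 29 in K/VP.5. HOXC10 itself had 169 reads in edit-3 and 1711 in K/VP.5.

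HOXA3 had no overlap between edit-3 (3.62 to 4.49 CPM) and K/VP.5 (2.43 to 3.15 CPM), but did not pass, with a log2 fold change of 0.49 (standard error 0.18, adjusted p = 0.068). The DESeq2 Wald test gave HOXA3 an adjusted p of 0.041, a fit of only the 2 lines gave 0.038 and the replicate block gave 0.040. HOXB13 had no overlap either, at a log2 fold change of 0.28 (standard error 0.15, adjusted p = 0.21). In all, 4 of the 21 tested members did not overlap between the 2 lines. The share without overlap over all genes tested was not counted, so nothing is read from that number. The 9 tested HOXB genes had log2 fold changes of -0.05 to 0.31 in edit-3 versus K/VP.5, with adjusted p-values of 0.17 and above. HOXD8 and HOXD9 had log2 fold changes of 0.32 (adjusted p = 0.27) and 0.54 (adjusted p = 0.13).

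The comparison of edit-3 with K562 shares libraries with the other 2 and is given for its values only. Of the 21 tested members, 15 changed, 12 higher and 3 lower, or 71.4%, where 39.2% of all genes tested changed, 20.6% higher and 18.6% lower. The log2 fold change of HOXD9 was 4.15 (adjusted p = 1e-07) and that of HOXD8 was 4.13 (adjusted p = 2.1e-08). HOXC10, with 1.40 CPM in edit-3 and 1.06 CPM in K562, was 0.40 higher on the log2 scale with overlapping libraries and did not pass (SE 0.21, adjusted p = 0.16), but did without edit-3 replicate 4 (0.55, adjusted p = 0.038). HOXB8 was lower in edit-3 by 0.52 (adjusted p = 0.0096), HOXB4 by 0.39 (adjusted p = 0.020) and HOXB2 by 0.39 (adjusted p = 0.045). HOXB4 lost its call without edit-3 replicate 4 (adjusted p = 0.051) or K562 replicate 3 (log2 fold change -0.26, adjusted p = 0.076). HOXB2 lost it without any 1 of the 4 edit-3 libraries, K562 replicate 1 or K562 replicate 3, with a log2 fold change of -0.25 and an adjusted p of 0.16 without K562 replicate 3, and with no filter on low counts (adjusted p = 0.052).

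MicroRNA genes lie inside the clusters, and 3 of the 6 listed (MIR10A, MIR10B and MIR196B) had 0 reads in all 12 libraries. Reads counted for such genes may come from longer RNAs, since the labels do not speak of small RNA libraries. MIR196A1, within HOXB, was the one tested, with 0.711, 0.768, 0.757 and 0.693 CPM in the edit-3 libraries, 0.595, 0.673, 0.473 and 0.346 CPM in those of K/VP.5, and 0.283, 0.262, 0.205 and 0.201 CPM in those of K562. It rose in K/VP.5 versus K562 without overlap (log2 fold change 1.10, SE 0.28, adjusted p = 0.0058). The gene stands inside the span of HOXB7, a member that did not rise. The mature miR-196a-5p, made from MIR196A1 and from MIR196A2 in HOXC, is known to cut HOXB8 mRNA. It is shown from RefSeq with its relative miR-196b-5p from HOXA, with the seed (bases 2 to 8) in capitals.
miR-196a-5p: uAGGUAGUuucauguuguuggg
miR-196b-5p: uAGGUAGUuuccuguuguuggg
The 2 share their seed. A search of GENCODE 29 transcripts of 19702 protein-coding genes for a stretch that pairs with all 22 bases of miR-196a-5p, with G and U allowed to pair, found 2 genes, HOXB8 and AKTIP. The HOXB8 site begins 410 bases after the stop codon and has 21 regular pairs and 1 pair of G with U, whose base is in capitals.
HOXB8 site: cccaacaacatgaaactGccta
HOXB8 was lower in K/VP.5 and in edit-3 than in K562, as given above and in the comparison of edit-3 with K562. In edit-3 versus K/VP.5, neither MIR196A1 (log2 fold change 0.50) nor HOXB8 (0.29, adjusted p = 0.17) passed. The amount of mature miR-196a was not measured, and its part in the level of HOXB8 was not tested.

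Long noncoding RNAs of HOXC and HOXD were among the RNAs of the clusters that rose in K/VP.5. Of 20 such genes in the table, 10 were tested, of which 7 rose and 1 fell in K/VP.5 versus K562, where 18.3% of all genes tested were higher and 18.3% lower. In edit-3 versus K/VP.5, 2 rose, where 12.9% of all genes tested were higher. Their median log2 fold change was 1.26 in K/VP.5 versus K562 and 0.15 in edit-3 versus K/VP.5. HAGLR, transcribed from HOXD next to HOXD1, had 11.7, 10.2, 10.8 and 10.7 CPM in libraries of edit-3, 3.09, 3.72, 3.57 and 3.6 CPM in the K/VP.5 libraries, and 0.0354, 0.0, 0.0 and 0.0 CPM in the libraries of K562. The single K562 read came from replicate 1, and the ratio of K/VP.5 to K562 was 393 (95% interval 70.1 to 15600, counting error only). The fitted log2 fold change of HAGLR was 8.07 (adjusted p = 1.7e-10), or 9.73 without K562 replicate 1. In edit-3 HAGLR was higher than in K/VP.5 by 1.64 (SE 0.15, adjusted p = 1.7e-06), with no overlap. HAGLR exons lie over 58.1% of the exon bases of HOXD1, together with a further antisense gene, so the 21, 13 and 0 reads of HOXD1 are uncertain.

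In HOXC, HOXC-AS2 had 4.93 ± 1.12 CPM in edit-3, 4.99 ± 0.586 CPM in K/VP.5 and 1.53 ± 0.455 CPM in K562, and HOXC-AS1 had 2.55 ± 0.525, 2.77 ± 0.129 and 1.03 ± 0.198 CPM in the same order (SD, n = 4 each). Both rose in K/VP.5 versus K562, by 1.71 (adjusted p = 1.6e-05) and 1.42 (adjusted p = 2.8e-05) on the log2 scale. In HOXB, HOXB-AS4 rose in K/VP.5, with 3.64 ± 0.403 CPM against 2.09 ± 0.564 CPM in K562 (log2 fold change 0.80, adjusted p = 0.0032). HOXB-AS3 was higher in edit-3, at 1.84 ± 0.367 CPM against 1.14 ± 0.128 CPM in K/VP.5 (log2 fold change 0.69, adjusted p = 0.015), and lost its call without K/VP.5 replicate 2 (adjusted p = 0.055). HOXB-AS3 was also the RNA that fell in K/VP.5 versus K562, at 1.14 ± 0.128 CPM in K/VP.5 and 1.63 ± 0.211 CPM in K562 (log2 fold change -0.51, adjusted p = 0.048), and that call was lost when any 1 of the 8 libraries of these lines was left out, with adjusted p-values of 0.051 to 0.12.

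Among the TALE cofactors, MEIS1 and PKNOX2 moved most between K/VP.5 and K562. Of the 9 tested, 4 rose and 1 fell in K/VP.5 versus K562 (median log2 fold change 0.27), and 2 rose and 2 fell in edit-3 versus K/VP.5 (median -0.01). Over all genes tested, 18.3% were higher and 18.3% lower in K/VP.5 versus K562. In edit-3 versus K/VP.5, 12.9% were higher and 10.6% lower. Nothing is read from the counts of so few genes. MEIS1, the usual partner of HOX proteins in leukemia, had 3.13, 4.41, 2.45 and 3.35 CPM in the edit-3 libraries, 5.53, 5.6, 5.13 and 4.88 CPM in those of K/VP.5, and 0.566, 0.59, 0.205 and 0.121 CPM in those of K562. It rose in K/VP.5 by 3.79 on the log2 scale (standard error 0.32, adjusted p = 3e-07), and the 3 lines did not overlap. PKNOX2 had 0 reads in edit-3, 472 in K/VP.5 (3.36 to 4.0 CPM) and 0 in K562, so its level in K/VP.5 was at least 138-fold higher than in K562, and 0 reads allow up to 0.0246 CPM in edit-3. Like HOXC10, it was high in K/VP.5 alone. PBX3 was higher in edit-3, at 3.0 ± 0.439 CPM against 0.974 ± 0.19 CPM in K/VP.5 (log2 fold change 1.63, adjusted p = 0.00024). PBX4 was higher in edit-3 too (0.89, adjusted p = 0.027), but not past the threshold without edit-3 replicate 2, 3 or 4, or else K/VP.5 replicate 1, 2 or 3 (adjusted p up to 0.084). In K/VP.5 versus K562, PBX2 fell by 0.46 (adjusted p = 0.00052) and PKNOX1 rose by 0.27 (adjusted p = 0.037). The call of PKNOX1 was lost without K562 replicate 2 or 4, or else K/VP.5 replicate 1, 3 or 4, with adjusted p-values up to 0.12, and with no filter on low counts (0.071).

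Activators and repressors of HOX genes were counted against the 36.6% of all genes tested that changed in K/VP.5 versus K562 and the 23.6% that changed in edit-3 versus K/VP.5, and nothing is read from either list's count. Of 18 tested MLL complex members and activators, 2 rose and 6 fell in K/VP.5 versus K562 (median -0.03), and 2 rose and 1 fell in edit-3 versus K/VP.5 (median -0.07). MLLT3, a subunit of the elongation machinery that MLL fusions recruit, had 15.1, 11.2, 10.6 and 11.2 CPM in libraries of edit-3, 1.3, 1.03, 1.02 and 1.2 CPM in the K/VP.5 libraries, and 0.141, 0.131, 0.273 and 0.241 CPM in the libraries of K562. The 3 lines did not overlap, and it rose by 3.39 in edit-3 versus K/VP.5 (adjusted p = 4.1e-09) and by 2.52 in K/VP.5 versus K562 (adjusted p = 1.5e-06). In K/VP.5 versus K562, AFF1 fell by 0.79 (adjusted p = 1.3e-06), the retinoic acid receptor RARA fell by 0.67 (adjusted p = 0.00034) and KMT2A, the MLL gene itself, rose by 0.31 (adjusted p = 0.011). In edit-3 versus K/VP.5, BRPF1 fell by 0.31 (adjusted p = 0.017; 0.054 without K/VP.5 replicate 2) and the demethylase KDM6A rose by 0.28 (adjusted p = 0.022). KDM6A lost its call without edit-3 replicate 2 or 4, or else K/VP.5 replicate 1, 2 or 4 (adjusted p up to 0.087) and with no filter on low counts (0.058).

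Of 26 Polycomb genes, all expressed in the 3 lines, 2 rose and 5 fell in K/VP.5 versus K562 (median -0.02), and 4 rose and 2 fell in edit-3 versus K/VP.5 (median -0.03). SUZ12, a core subunit of Polycomb complex PRC2, fell by 0.72 in K/VP.5 (adjusted p = 2.1e-06), with means of 78.4 CPM in K/VP.5 and 129 CPM in K562, and PCGF2 fell by 1.03 (adjusted p = 1.6e-06). PHC3 fell by 0.42 (adjusted p = 0.0013) and CBX7 by 0.98 (adjusted p = 0.027). The call of CBX7 was lost without K562 replicate 2 or 4, or else K/VP.5 replicate 1, 2 or 3, with adjusted p-values up to 0.076 and a log2 fold change of -0.62 without K562 replicate 4, and with no filter on low counts (0.098). In edit-3 versus K/VP.5, PHC2 rose by 0.66 (adjusted p = 0.00013), JARID2 by 0.44 (adjusted p = 0.011), PHC3 by 0.43 (adjusted p = 0.002) and EED by 0.42 (adjusted p = 0.011).

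The genes beside the clusters are given for comparison with the HOX genes. For each cluster the 10 nearest tested protein-coding genes on each side were taken. Around HOXC, 1 of the 20 neighbours rose and 6 fell in K/VP.5 versus K562 (median log2 fold change -0.10), where 36.6% of all genes tested changed, so this count is near the background. Around HOXD, 6 rose and 5 fell (median 0.02), around HOXA 7 rose and 3 fell (median 0.05), and around HOXB 2 fell (median -0.15). In edit-3 versus K/VP.5 the medians were 0.05, 0.06, 0.07 and 0.06 around HOXA, HOXB, HOXC and HOXD. SKAP2, the nearest tested gene below HOXA, named here after its values were seen, had 23.7 ± 2.87 CPM in edit-3, 12.8 ± 0.456 CPM in K/VP.5 and 6.9 ± 1.67 CPM in K562 (SD, n = 4 each). SKAP2 was higher both in edit-3 than in K/VP.5 (log2 fold change 0.90, adjusted p = 0.00026) and in K/VP.5 than in K562 (0.89, adjusted p = 0.00019).

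The neighbours with the largest changes lay farther out. In K/VP.5 versus K562, OSBPL6, 2000 kb above HOXD, rose by 5.64 (adjusted p = 2.1e-07), PDE11A above HOXD fell by 1.75 (adjusted p = 3.6e-06) and NCKAP1L above HOXC fell by 4.28 (adjusted p = 5.5e-06). GSDME below HOXA rose by 1.58 (adjusted p = 0.034), a call lost without K562 replicate 1, 2 or 3, or else K/VP.5 replicate 4 (adjusted p up to 0.10), and with no filter on low counts (0.099). In edit-3 versus K/VP.5, WIPF1 below HOXD fell by 4.09 (adjusted p = 7.2e-08) and WIPF3 above HOXA rose by 2.15 (adjusted p = 4.9e-07). ITGA5 (1.48, adjusted p = 0.018) and NCKAP1L (1.74, adjusted p = 0.025), both above HOXC, rose in edit-3 as well. ITGA5 lost its call without edit-3 replicate 4 or K/VP.5 replicate 1 or 2 (adjusted p up to 0.060), and with no filter (0.051). NCKAP1L lost it without edit-3 replicate 2 or 4, or else K/VP.5 replicate 2, 3 or 4 (adjusted p up to 0.080), and with no filter (0.064).

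**Figure D5:**
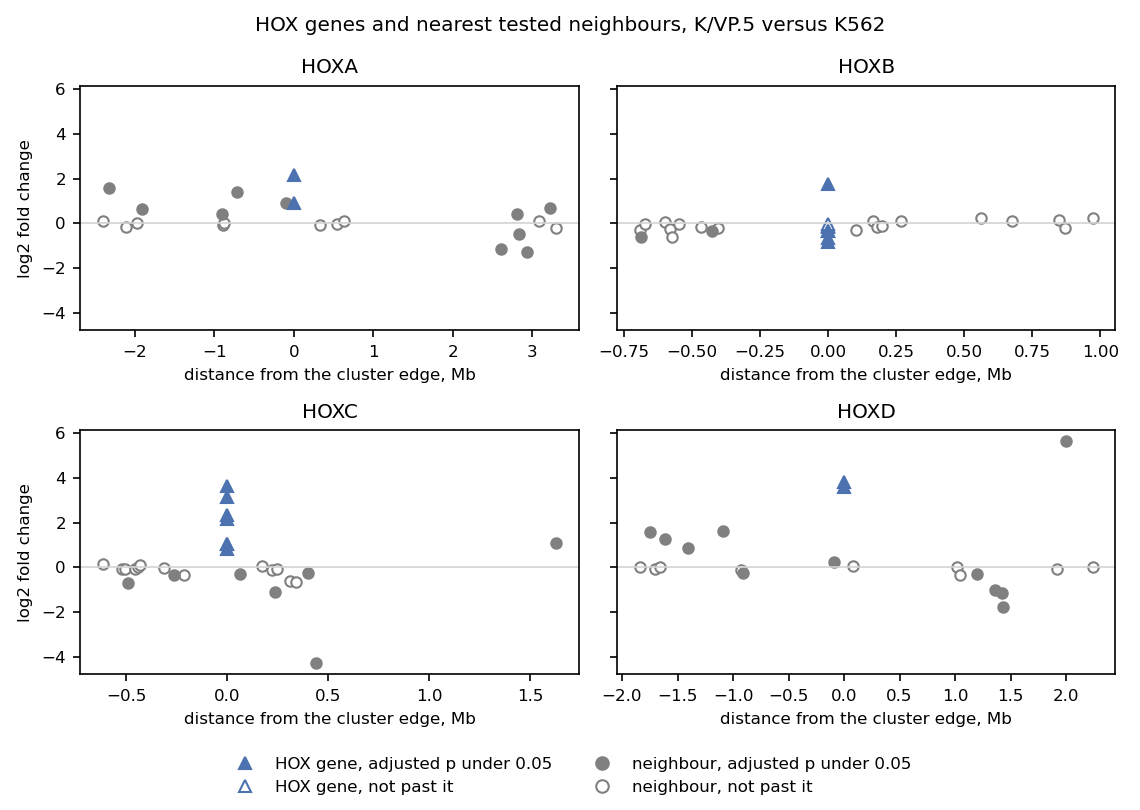
Log2 fold change in K/VP.5 versus K562 of the tested HOX genes (triangles, drawn at 0) and of the 10 nearest tested protein-coding genes on each side of each cluster (circles), against the distance from the cluster edge in Mb. Filled symbols have an adjusted p under 0.05. The 7 HOXC triangles lie above 0 while 6 of the filled HOXC neighbours lie below it. The HOXB triangles lie from -0.82 (HOXB8) to -0.04 (HOXB9), apart from HOXB13 at 1.77.

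Of 7 tested homeobox genes outside the clusters (EN, DLX, GBX, MNX and similar families), 6 rose in K/VP.5 versus K562 (median log2 fold change 1.06), and 2 fell in edit-3 versus K/VP.5 (median -0.15). Of 12 tested genes reported as HOX targets in blood cells, 4 rose and 5 fell in K/VP.5 versus K562, and 5 rose and 4 fell in edit-3 versus K/VP.5. Over all genes tested, 36.6% changed in K/VP.5 versus K562 and 23.6% in edit-3 versus K/VP.5.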

How the data were processed

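RNA sequencing read counts per gene, as deposited by the authors in 1 table, were used for 12 libraries, 4 each of edit-3, K/VP.5 and K562. The submitters' processing notes name HISAT2 2.1.0, Subread 1.5.1 with featureCounts, and GRCh38. Annotation release, read length, strand setting and the treatment of reads with several matches were not given in the sources used here. Lines were assigned by source name, since the description field calls all 12 libraries parental. Of 58395 gene IDs, 58275 matched GENCODE 29, which gave locations and exon lengths.

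Genes passing edgeR's filterByExpr (minimum count 10; 18286 genes, 99.89% of reads) were fitted in 1 model over all 12 libraries with edgeR 4.0.16 in R 4.3.3 (TMM, robust quasi-likelihood test), with Benjamini-Hochberg adjustment over all tested genes and a threshold of 0.05. Standard errors are the log2 fold change divided by the square root of F. CPM uses TMM-scaled library sizes, and RPKM, computed here, divides it by exon length in kb. The procedure was tested on simulated data. Library totals of 25311993 to 37065946 reads set the precision, and a count of 0 allows 3 reads over 4 libraries. No pair of libraries agreed within sampling noise.

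Same-numbered libraries of K/VP.5 and K562 deviated together, with correlations of 0.145 to 0.508, and each library correlated best with its own number, a pairing seen in the data and not stated in the labels. The reported tests do not use it, and the fit with the replicate number as a block is an alternative. The alternatives were DESeq2 1.42.0 size factors and its Wald test, no filter and a stricter filter, a fit of only 2 lines, the replicate block, other thresholds for expressed, and leaving out each library.

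Every member that was expressed or passed a test was named, and from the lists of cofactors, regulators, long noncoding RNAs and neighbours at most 4 per list and comparison, those with the largest log2 fold change among genes past the threshold with a mean of 1 CPM in some line. MIR196A1, SKAP2 and the fall of HOXB-AS3 were named after their values were seen. The members and lists were chosen with earlier results of these data known. The values of 1 member are not reported here, and it is left out of the figures.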

Additional observations from a re-analysis of the deposited data

Results flagged for a closer look

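Of 63 groups of 4 libraries of tested HOX genes, 3 had 1 library far from the other 3, where chance gives about 1 group in 20. HOXB9 had 271 CPM in edit-3 replicate 2, with the others at 224 to 231 CPM. HOXB9 had 260 CPM in K/VP.5 replicate 3, with the others at 209 to 212 CPM. HOXD8 had 1.49 CPM in K/VP.5 replicate 2, with the others at 1.86 to 1.93 CPM.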

How the results depend on the processing

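HOX genes changed in edit-3 versus K/VP.5 numbered 2 or 3 under every alternative, leave-one-out included, with 3 under the replicate block. In K/VP.5 versus K562 they numbered 15 with only the 2 lines, 18 under the replicate block, 22 with no filter and 16 to 19 with 1 library left out. In edit-3 versus K562 they numbered 14 with the stricter filter, 20 with no filter, 15 under the replicate block and 14 to 17 with 1 library left out. These counts are not all over the same members. With no filter every member with a read was tested, not only the 21 of the main fit. Some fits without 1 library took in HOXA11 and HOXC11, untested in the main fit. The counts alone therefore do not show how stable each call is. Beside HOXB2 in K/VP.5 versus K562 and HOXA3 in edit-3 versus K/VP.5, the replicate block changed no HOX call. Expressed HOX genes at 0.5 CPM numbered 20 in edit-3, 20 in K/VP.5 and 14 in K562, at 2 CPM 15, 15 and 9, and at 1 RPKM 12, 12 and 7.

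Directions that reversed belonged to genes that did not pass. HOXB3 in edit-3 versus K562 (0.01) was -0.00067 with DESeq2 size factors, -0.00094 with no filter, -0.00066 by the DESeq2 Wald test and -0.0049 with only the 2 lines, and -0.11 to 0.09 with 1 library left out. With 1 library left out, HOXB2 in edit-3 versus K/VP.5 ran from -0.16 to 0.07, HOXB5 from -0.08 to 0.14 in edit-3 versus K/VP.5, -0.30 to 0.04 in K/VP.5 versus K562 and -0.26 to 0.09 in edit-3 versus K562, and HOXB9 from -0.12 to 0.0035 in K/VP.5 versus K562 and -0.01 to 0.10 in edit-3 versus K562. The cause was not tested. Edit-3 and K/VP.5 are each 1 clone, and depth limits what can be said of the 18 untested HOX genes.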
